A study of Rattus norvegicus with 10 samples.

Results

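The C-type lectin receptors described here are 10 genes chosen by name: Clec4a1, Clec4a2, Clec4a3, Clec4d, Clec4e, Clec7a, Clec9a, Clec10a, Clec12a and Clec1b. Of the 9003 genes in the expression table of rat splenic M2 macrophages, 9 were these receptors. Clec1b, the CLEC-2 receptor of platelets for podoplanin, was not listed in the table, and no value is given for it. The macrophages came from WKY/NCrj rats and were sorted by flow cytometry, in 10 libraries of 4 groups. Control macrophages (n = 2) came from rats in the physiological condition. GN macrophages (n = 2) came from rats with glomerulonephritis induced by TF78, a mouse antibody against the glomerular basement membrane, and not given adipose-derived mesenchymal stem cells (ASCs). EV+ macrophages (n = 3) and EV- macrophages (n = 3) came from nephritic rats given human ASCs whose membranes carried the dye DiD. EV+ cells were DiD-positive and had taken up membrane of the ASCs, whereas EV- cells were DiD-negative. Nephritis is shared by the GN, EV+ and EV- groups, and the ASC injection by EV+ and EV-. The nephritis model used female rats of 7 to 12 weeks, and the labels give no age for single libraries. DiD stains any membrane of the ASCs, so the sort by itself does not separate vesicles from other membrane fragments.

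C-type lectin receptors are surface proteins of myeloid cells that bind sugars, lipids and proteins of microbes and of damaged host cells through a C-type lectin-like domain. Activating receptors such as Dectin-1 (Clec7a), Mincle (Clec4e) and MCL (Clec4d) signal through the kinase Syk and the adaptor Card9 to NF-kB and cytokine genes, Mincle and MCL by way of the Fc receptor gamma chain (Fcer1g). Inhibitory receptors such as DCIR (Clec4a) and CLEC12A carry a motif in the cytoplasmic tail that recruits the phosphatases SHP-1 and SHP-2 (Ptpn6 and Ptpn11). The Clec4a genes form the DCIR family, and whether each of those measured here carries this motif was not examined. In the spleen, macrophages and dendritic cells use these receptors to sense fungi, mycobacteria, dead cells and crystals.

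In the RefSeq annotation of the rat (GRCr8), 9 of the 10 genes lie on chromosome 4 and Clec10a on chromosome 10. Along chromosome 4, Clec4a1, Clec4a3, Clec4a2, Clec4a, Clec4b2, Clec4d and Clec4e follow one another in that order. In a separate cluster the order is Clec12a, Chtopl1, Clec12b, Clec1b, Clec9a, Clec1a, Clec7a and Olr1. Clec12a and Clec7a are therefore members of the same cluster that were both well covered, and the bases upstream of their RefSeq start are shown because Clec7a passed the test between groups and Clec12a did not. Each run is 250 bases long, on the gene's own strand and ending just before the start. Capitals mark GAGGAA or its reverse complement, one form of the sites bound by PU.1, the factor that directs many macrophage genes. The shorter GGAA occurs in both runs outside these matches and was not searched by itself, so a run without capitals is not a run without such sites. The Clec7a run is chr4:164599828-164600077 on the minus strand and the Clec12a run is chr4:164483912-164484161 on the plus strand, both of GRCr8.
Clec7a: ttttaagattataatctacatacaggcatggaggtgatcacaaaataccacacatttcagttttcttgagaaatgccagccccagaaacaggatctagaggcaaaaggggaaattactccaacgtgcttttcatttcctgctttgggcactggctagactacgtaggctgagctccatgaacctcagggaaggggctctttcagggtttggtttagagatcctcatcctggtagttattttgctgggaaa
Clec12a: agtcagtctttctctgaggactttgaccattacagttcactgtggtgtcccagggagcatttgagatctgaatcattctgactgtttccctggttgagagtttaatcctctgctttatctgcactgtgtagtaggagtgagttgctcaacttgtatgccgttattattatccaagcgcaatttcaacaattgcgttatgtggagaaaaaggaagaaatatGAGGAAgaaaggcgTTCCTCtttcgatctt
GAGGAA was found 2 times in the Clec12a run and 0 times in the Clec7a run. Among the 9 receptors with a RefSeq promoter entry (Clec10a has none), 5 held it, which were Clec4a1, Clec4a3, Clec4d, Clec4e and Clec12a, against 23.3% of 33469 rat promoters. In all, 11 motifs were searched on both strands after the expression values were known. The other motifs were GGAAGT (3 of 9 receptors, 19.2% of promoters), TGANTCA (1 of 9, 6.3%), TGNGGT (7 of 9, 41.0%), CANNTG (6 of 9, 65.5%), GGGANTTCC (0 of 9, 1.4%), ATTGCGAAA (0 of 9, 0.0%), TTNNGCAA (2 of 9, 9.2%), TGACGTCA (0 of 9, 1.6%), TATAAA (1 of 9, 12.9%) and TTCNNNGAA (2 of 9, 7.7%). GAGGAA and GGAAGT can overlap, as can TGANTCA with CANNTG. A match describes the letters of the window and not binding, and these counts were not tested.

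The values are TMM-normalized CPM, which are reads scaled to library size and not to transcript length, so levels are compared between groups for a gene and not between genes. Between 19270515 and 26617093 reads per library lay on the listed genes, and 3 reads, taken as the limit that a count of 0 allows, were worth 0.113 to 0.153 CPM. This covers counting error only. The markers of macrophages fixed for the check were listed for 10 of 12 genes, with Csf1r (5800 to 8155 CPM) the most abundant, whereas Cd163 and Mrc1 did not exceed 1.81 CPM in any library, and Vsig4 and Marco were not listed. The summed CPM of these markers was 8555 to 8995 in control, 9847 to 9861 in GN, 10107 to 11222 in EV+ and 9655 to 10367 in EV- libraries. Of 10 neutrophil markers 8 were listed, with a sum of 550 to 556 CPM in control and 611 to 745 CPM in the other groups, nearly all from Csf3r, while S100a8 stayed at or below 3.39 CPM. Of 12 markers of NK and T cells 9 were listed, with sums of 216 to 225 CPM in control, 284 to 289 in GN, 270 to 345 in EV+ and 343 to 874 in EV-, the last value in EV- replicate 1. Cd8a (199 to 333 CPM over all libraries) made up most of the sum in control and GN, where Cd3e had 0 reads. Of 7 B cell markers 5 were listed, with 90.6 to 111 CPM in control and 45.1 to 78.8 CPM in the other groups. None of 9 platelet markers was listed. In bulk samples such as these, fewer cells of a type and less RNA per cell cannot be told apart.

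Clec7a, which encodes Dectin-1, the receptor for fungal beta-glucan, fell in nephritis. Its level was 473 and 520 CPM in the control libraries, 381 and 346 CPM in GN, 413, 360 and 364 CPM in EV+, and 377, 364 and 357 CPM in EV-. Both control libraries lay above all 8 libraries of nephritic rats, and the 3 nephritic groups overlapped each other. The order of the group means was control (496 ± 33.1 CPM, SD, n = 2), EV+ (379 ± 29.3 CPM, n = 3), EV- (366 ± 10.2 CPM, n = 3) and GN (363 ± 24.7 CPM, n = 2), and the last 3 did not differ beyond their spread. The GN mean was 73.2% of the control mean, the EV+ mean 76.4% and the EV- mean 73.8%.

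On the log2(CPM + 1) scale, tested by limma over all 9003 genes with Benjamini-Hochberg adjustment and a threshold of 0.1, Clec7a was lower in GN than in control by a log2 fold change of -0.45 (SE 0.0893, 95% interval -0.64 to -0.26, adjusted p = 0.0264). The change from control was -0.39 in EV+ (SE 0.0815, adjusted p = 0.0217) and -0.44 in EV- (SE 0.0815, adjusted p = 0.0146), and the adjusted p over the 4 groups was 0.0292. The 3 comparisons share the control libraries. Clec7a was the only receptor of the 9 to pass in each of them. Calls in either direction made up 1.75% of all genes for GN, 3.63% for EV+ and 2.84% for EV- against control, and 2.57% over the 4 groups. The calls rested in part on how the spread was estimated and on single libraries. Without the intensity trend in limma the adjusted p was 0.170 for GN, 0.128 for EV+ and 0.119 for EV-, and 0.222 over the 4 groups. Without control replicate 2 it was 0.206, 0.265 and 0.199, and 0.411 over the 4 groups. It was 0.117 over the 4 groups without control replicate 1, 0.109 without GN replicate 1 and 0.328 without GN replicate 2 for GN against control, and 0.105 without EV+ replicate 3 for EV+ against control. The log2 fold change itself stayed between -0.52 and -0.32 in all of these comparisons with control and all alternatives. Marker sums moved with the groups too, and their part in the Clec7a values was not tested. The sums of macrophage, neutrophil and NK and T cell markers were higher in all 8 nephritic libraries than in control, and those of B cell and cDC1 markers were lower (cDC1 227 to 255 CPM in control and 185 to 223 CPM in nephritis). Single abundant genes carried most of these sums, except that of NK and T cells in EV- replicate 1 (Prf1 335 CPM and Cd8a 333 CPM). Apart from the NK and T cell list in EV-, the lists did not move as wholes. Of the 10 macrophage markers, 7 were above control in GN, 6 in EV+ and 4 in EV-, and Csf1r made up most of the sum. Of the 9 NK and T cell markers, 4 were higher and 4 lower in GN (median log2 fold change 0.00), and 0 passed the test there. Cd8a was 268 and 265 CPM in GN against 199 and 201 CPM in control. In EV+ against control 6 of the 9 were higher, and 1 passed as higher. In EV- all 9 were higher (median log2 fold change 1.42), and 2 passed. Of the 5 B cell markers, 3 were higher and 2 lower in GN, where 1 passed as lower. In EV+ 4 were higher and 1 lower (median 0.64), and in EV- 1 was higher and 4 lower (median -0.16). Cd79b, at 87.0 and 109 CPM in control and 42.1 to 73.0 CPM in nephritis, made up most of the sum.

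**Figure D1:**
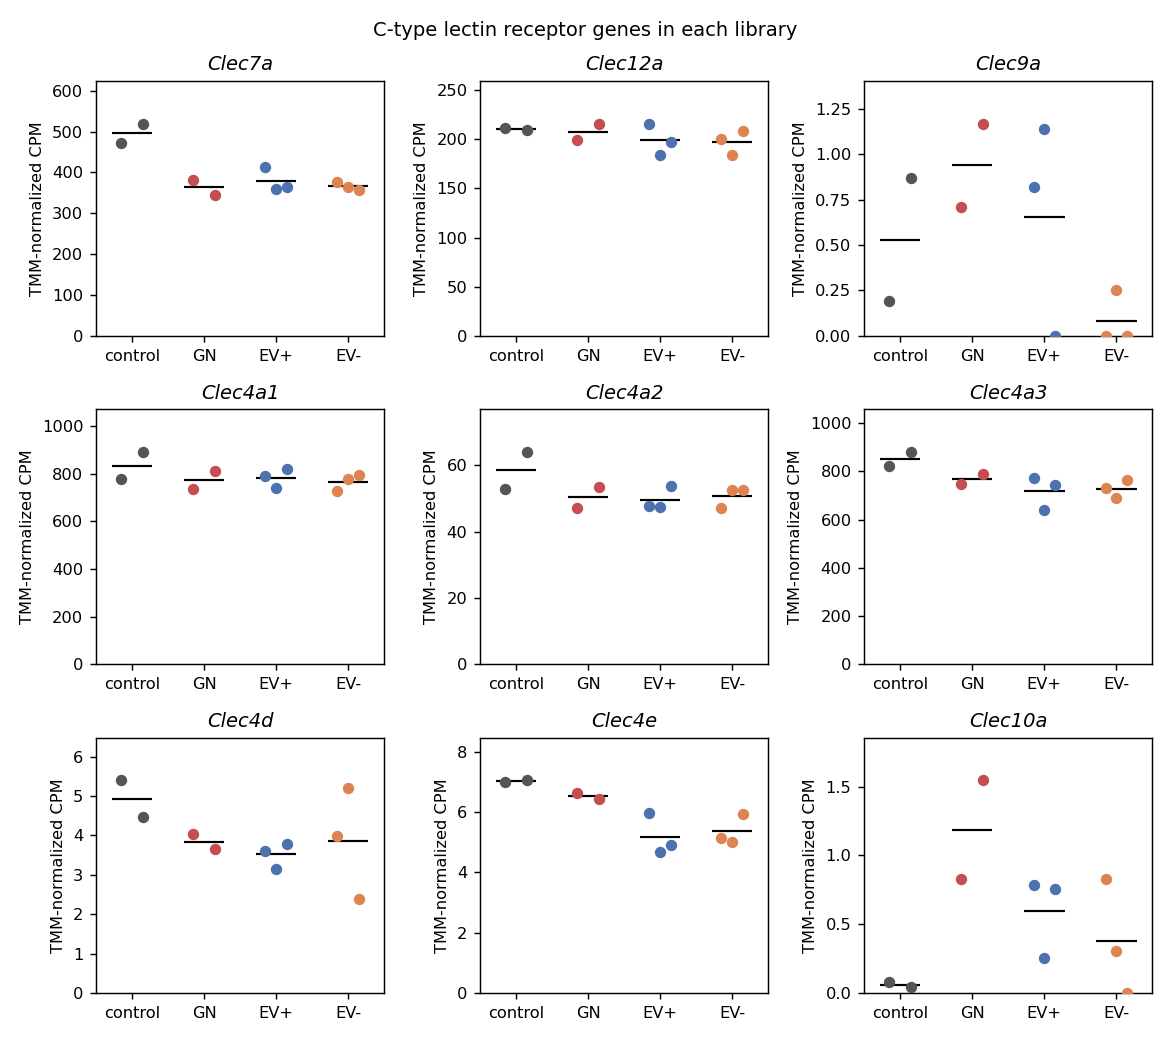
TMM-normalized CPM (y axes, linear and starting at 0) of the 9 listed receptor genes in each library of the control, GN, EV+ and EV- groups, with a point per library and a line at the group mean. For Clec7a both control points (473 and 520 CPM) lie above the 8 nephritic points (346 to 413 CPM), whereas the points of Clec12a overlap in all groups.

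None of the listed neighbours of Clec7a passed the test in the main fit. Clec12a, an inhibitory receptor that recognises uric acid crystals from dead cells, stood at 211 and 209 CPM in control, 199 and 215 CPM in GN, 216, 184 and 197 CPM in EV+, and 200, 184 and 209 CPM in EV-. Its groups overlapped. The log2 fold change from control was -0.02 in GN (SE 0.0951, adjusted p = 0.969), -0.08 in EV+ (adjusted p = 0.744) and -0.09 in EV- (adjusted p = 0.731) by limma. The ratio of Clec7a to Clec12a within a library, which does not depend on the scaling of that library, was 2.24 and 2.48 in control and 1.61 to 1.98 in the 8 nephritic libraries. The pair was chosen with its values known, so this ratio restates the unequal change of the pair given above. It was not tested. Olr1, the receptor for oxidised LDL next to Clec7a, was 196 and 142 CPM in control, 142 and 130 CPM in GN, 152 to 181 CPM in EV+ and 149 to 152 CPM in EV-, with log2 fold changes of -0.29 (adjusted p = 0.436), -0.01 (adjusted p = 0.991) and -0.14 (adjusted p = 0.671) from control. Without control replicate 2, which leaves a single control library, the Olr1 change in GN was -0.53. Clec1a, on the other side, stayed at or below 2.18 CPM, and its log2 fold change in GN was -0.77 (SE 0.321, adjusted p = 0.400).

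**Figure D2:**
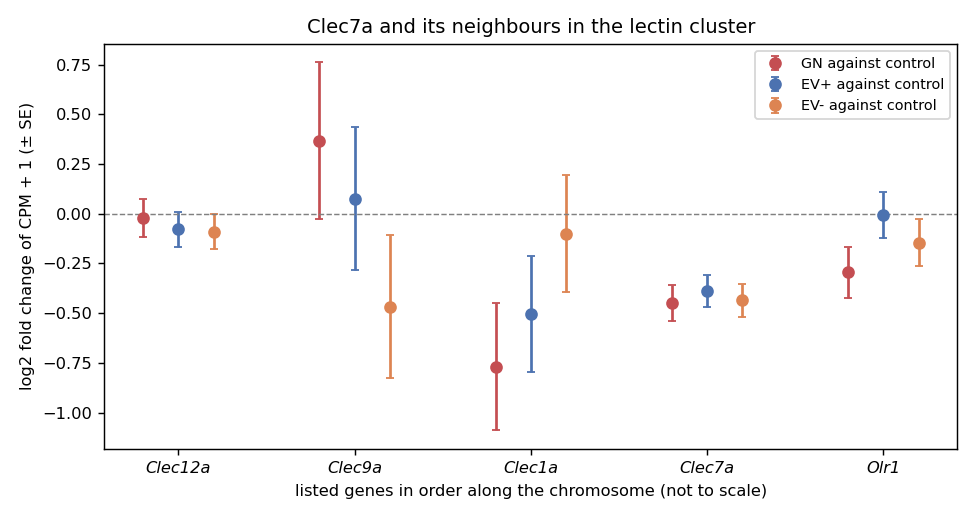
Log2 fold change of CPM + 1 against control (y axis, point ± SE from limma) for the genes of the Clec12a to Olr1 cluster that are in the table, in chromosome order (x axis, not to scale), for GN, EV+ and EV-. Clec7a lies at -0.45, -0.39 and -0.44, while Clec12a lies between -0.09 and -0.02 and the few-read genes Clec9a and Clec1a have wide errors.

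No gene of the DCIR family passed the test in any comparison. Clec4a1, also named Dcir4, was 775 and 890 CPM in control, 736 and 812 CPM in GN, 791, 740 and 819 CPM in EV+, and 727, 777 and 793 CPM in EV-. The groups overlapped, and the log2 fold change from control was -0.10 in GN, -0.09 in EV+ and -0.12 in EV-, with adjusted p of 0.773, 0.684 and 0.604 by limma. Clec4a2, also named Dcir2, was 53.0 and 64.1 CPM in control, 47.3 and 53.6 CPM in GN, 47.8, 47.3 and 53.8 CPM in EV+, and 47.2, 52.6 and 52.6 CPM in EV-. Control replicate 2 was above all other libraries and control replicate 1 was within their range. The log2 fold changes of Clec4a2 from control were -0.21, -0.23 and -0.20 in GN, EV+ and EV-, with adjusted p of 0.635, 0.372 and 0.526.

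Clec4a3, also named Dcir3, was 822 and 880 CPM in control, 746 and 790 CPM in GN, 771, 639 and 742 CPM in EV+, and 730, 689 and 763 CPM in EV-. As with Clec7a, both control libraries lay above all 8 nephritic libraries, but the size was smaller. By limma the log2 fold change from control was -0.15 in GN (SE 0.0934, adjusted p = 0.650), -0.25 in EV+ (SE 0.0853, adjusted p = 0.175) and -0.23 in EV- (SE 0.0853, adjusted p = 0.260), so that no comparison passed the threshold. Over all alternatives the adjusted p of Clec4a3 ranged from 0.0975 to 0.664 in EV+ and from 0.0983 to 0.774 in EV-, and it passed only without EV+ replicate 1 (EV+ against control) and without EV+ replicate 2 (EV- against control). The 3 Clec4a genes are similar in sequence, and how reads shared between them were assigned is not given in the sources used here, so their separate levels are uncertain to that extent.

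Mincle (Clec4e), the receptor for mycobacterial cord factor and for SAP130 from dying cells, was listed at a low level. It was 7.01 and 7.05 CPM in control, 6.63 and 6.44 CPM in GN, 5.98, 4.67 and 4.91 CPM in EV+, and 5.15, 4.99 and 5.95 CPM in EV-. Both control libraries were above the rest and both GN libraries were above all EV+ and EV- libraries. The share of all genes with GN above EV+ and EV- in this way is not given. Clec4e held 98 to 182 reads per library, and neither EV+ nor EV- passed against GN by limma. The log2 fold change from control was -0.09 in GN (SE 0.202, adjusted p = 0.924), -0.38 in EV+ (SE 0.184, adjusted p = 0.355) and -0.34 in EV- (SE 0.184, adjusted p = 0.481), and none passed. Clec4d, which encodes MCL, the partner with which Mincle forms a complex, was 5.39 and 4.45 CPM in control, 4.02 and 3.65 CPM in GN, 3.59, 3.16 and 3.79 CPM in EV+, and 3.98, 5.20 and 2.37 CPM in EV-. The EV- libraries of Clec4d ran from below all EV+ values to above control replicate 2. Its log2 fold changes from control were -0.29, -0.39 and -0.33 in GN, EV+ and EV-, with adjusted p of 0.795, 0.505 and 0.649 by limma. Clec4b2, a DCAR-type gene of the same cluster that is no member of the set, was at or below 2.60 CPM with a log2 fold change of 1.15 in GN (adjusted p = 0.254).

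Clec10a, the galactose-type lectin MGL that is often used as a marker of alternatively activated macrophages, was near the limit of detection. Control libraries held 2 and 1 reads (0.0770 and 0.0412 CPM) and GN libraries 21 and 41 reads (0.828 and 1.54 CPM). EV+ libraries held 20, 6 and 17 reads (0.781, 0.253 and 0.758 CPM), and EV- libraries 17, 6 and 0 reads (0.826, 0.306 and 0 CPM). Both control libraries were below all GN and all EV+ libraries, and EV- replicate 3 was at 0. The pooled reads gave a GN level 20.0 times that of control (95% exact interval 6.53 to 99.6, counting error only, from 62 against 3 reads). The corresponding ratio was 10.03 for EV+ (3.21 to 50.5) and 5.84 for EV- (1.76 to 30.4). Against the spread between libraries, limma gave a log2 fold change on CPM + 1 of 1.03 for GN against control (SE 0.359, adjusted p = 0.283), 0.57 for EV+ (adjusted p = 0.445) and 0.34 for EV- (adjusted p = 0.736), and none passed. On the recovered reads GN against control passed in edgeR's likelihood-ratio test (log2 fold change 4.20, adjusted p = 0.0424) and in DESeq2 (4.32, adjusted p = 0.0981), but not in edgeR's quasi-likelihood test (adjusted p = 0.296). These tests call 3.24% (likelihood-ratio) and 3.27% (DESeq2) of all genes in that comparison.

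Clec9a, the receptor by which cross-presenting dendritic cells (cDC1) bind actin filaments of dead cells, was also at few reads. It was 0.193 and 0.866 CPM in control, 0.710 and 1.17 CPM in GN, 0.820, 1.14 and 0 CPM in EV+, and 0, 0.255 and 0 CPM in EV-. The groups held 26, 49, 48 and 5 reads in that order, and EV+ replicate 3 and EV- replicates 1 and 3 had no read. Both GN libraries were above all 3 EV- libraries, with a log2 fold change of -0.84 in EV- against GN (SE 0.359, adjusted p = 0.580 by limma), and EV+ overlapped every group. Among 9 cDC1 markers, 7 were listed and Xcr1 and Wdfy4 were not. Their sum was 227 to 255 CPM in control, 204 to 215 in GN, 204 to 219 in EV+ and 185 to 223 in EV-, with Irf8 (103 to 138 CPM) the most abundant and Batf3 and Flt3 at or below 2.56 and 3.50 CPM. The part of these cells in the Clec9a values was not tested.

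Over the 9 receptors together, the log2 fold change was below 0 for 7 in GN, 7 in EV+ and 8 in EV- against control, where 50.1%, 50.0% and 48.6% of all genes were below 0. The median was -0.10 in GN, -0.23 in EV+ and -0.23 in EV-, while the median of all genes was between -0.00 and 0.01. For 3 receptors (Clec7a, Clec4a3 and Clec4e) both control libraries were above all 8 nephritic libraries, against 6.73% of all genes, and for 0 receptors both were below all 8, against 5.89%. Of the 5 receptors at 40 CPM or more in every library (Clec4a1, Clec4a2, Clec4a3, Clec7a and Clec12a), the fitted changes from control ran from -0.45 to -0.02 in GN and from -0.44 to -0.09 in EV-. The 3 comparisons share the control libraries and are not separate evidence of a direction.

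**Figure D3:**
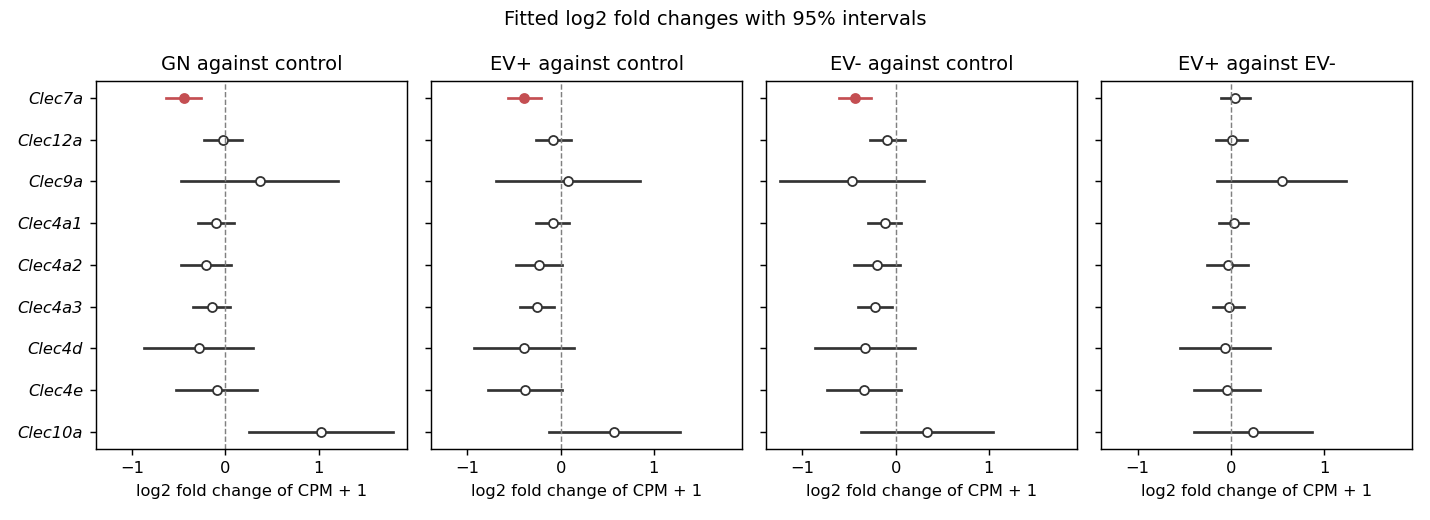
Fitted log2 fold change of CPM + 1 (x axes) with 95% intervals from limma for each receptor in GN, EV+ and EV- against control and in EV+ against EV-. Filled red points passed an adjusted p of 0.1, which held for Clec7a in the 3 comparisons with control and for no receptor between EV+ and EV-.

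Whether uptake of ASC membrane went with a different receptor level was read from EV+ against EV-, and from each against GN. No receptor passed in limma in EV+ against EV- (0.0222% of all genes called), EV+ against GN (0.122%) or EV- against GN (0.378%). At an unadjusted p under 0.05 there were 0, 0 and 1 receptors in these comparisons, the last being Clec9a, against 4.57%, 7.13% and 7.85% of all genes, and edgeR's quasi-likelihood and likelihood-ratio tests and DESeq2 called 0 in each. For Clec7a, EV+ exceeded EV- by 0.05 on the log2 scale (95% interval -0.11 to 0.20). The interval was -0.16 to 0.18 for Clec12a, -0.12 to 0.19 for Clec4a1, -0.19 to 0.14 for Clec4a3 and -0.25 to 0.19 for Clec4a2. The lower-read receptors were less precise, with -0.40 to 0.31 for Clec4e and -0.54 to 0.42 for Clec4d. The largest of the 9 differences were those of the receptors with the fewest reads, Clec9a (0.54, -0.15 to 1.23) and Clec10a (0.24, -0.39 to 0.87). Their pooled reads, 48 against 5 for Clec9a and 43 against 23 for Clec10a, gave EV+ to EV- ratios of 8.82 (3.53 to 28.4) and 1.72 (1.01 to 2.98), with exact 95% intervals that cover counting error only and not the spread between libraries. Against GN, Clec7a changed by 0.06 in EV+ (-0.11 to 0.24) and by 0.01 in EV- (-0.16 to 0.19).

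The pattern of Clec7a across the 10 libraries was closest to those of Mrpl1, Tank and Ddit3, with distances of 0.784, 0.871 and 0.883 between z-scores of log2(CPM + 1), among 7193 genes with a mean of at least 5 CPM. For Clec9a, the receptor with the lowest p between EV+ and EV-, the nearest were Ddx1, Alg11 and Ddx31, at 1.41, 1.48 and 1.52. These are descriptions of likeness over 10 libraries.

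Most genes of the receptors' signalling pathway did not pass the test. Of 41 listed genes of the pathway, 35 were in the table, and the median log2 fold change was -0.05 in GN, -0.00 in EV+ and -0.01 in EV- against control. Named for their role, Syk was 69.2 to 81.8 CPM over all libraries, Card9 119 to 151 CPM, Fcer1g 2744 to 3955 CPM and Ptpn6 1815 to 2003 CPM, and none of the 4 passed in any comparison by limma. The genes that passed were targets further down the pathway. Il1b, the inflammasome cytokine, fell in GN (-0.64, adjusted p = 0.0772), in EV+ (-0.56, adjusted p = 0.0624) and in EV- (-0.76, adjusted p = 0.0141) against control. These Il1b calls were lost without the intensity trend (adjusted p = 0.280, 0.211 and 0.121) and without control replicate 1 (0.518, 0.384 and 0.187), where the EV+ change was -0.33. The GN call was also lost without either GN library (0.282 and 0.461), and the EV+ call without EV+ replicate 1 (0.124), EV+ replicate 2 (0.127) or either GN library (0.1001 each). Il1b was 5157 and 3790 CPM in control, 2917 and 2770 CPM in GN, 2735 to 3451 CPM in EV+ and 2368 to 3133 CPM in EV-. Il10, the anti-inflammatory cytokine, fell against control in EV+ (-1.15, adjusted p = 0.0232) and EV- (-1.74, adjusted p = 0.00148), and in EV- against GN (-1.17, adjusted p = 0.0810, or 0.116 when blocked by replicate number). The Il10 call in EV- against GN was also lost without the trend (0.263) and without EV- replicate 1 (0.181), EV- replicate 2 (0.239), GN replicate 1 (0.453) or GN replicate 2 (0.543), and that in EV+ against control without control replicate 1 (0.230). Il10 was 25.2 and 17.0 CPM in control, 12.7 and 14.7 CPM in GN, 11.99, 9.14 and 6.11 CPM in EV+, and 5.20, 4.89 and 6.54 CPM in EV-. Its mean was 9.08 CPM in EV+ and 5.54 CPM in EV-, with overlapping ranges, and Il10 did not pass in EV+ against EV- by limma. By quantitative PCR the authors reported higher IL-10 in DiD-positive than in DiD-negative M2 macrophages. Egr2, an early-response transcription factor that Dectin-1 signalling can induce, fell in EV+ (-1.68, adjusted p = 0.00794) and EV- (-1.65, adjusted p = 0.0124) against control, from 6.09 and 3.55 CPM to at most 1.25 CPM. Without control replicate 1 both Egr2 calls were lost (adjusted p = 0.138 and 0.171). By limma 1 of 35 genes fell in GN, 3 in EV+ and 3 in EV- against control and 1 in EV- against GN, and none rose, where calls made up 1.75%, 3.63%, 2.84% and 0.378% of all genes. DESeq2 called 2 in GN and 5 in EV+ against control, where its share of all genes was 3.27% in GN and is not given for EV+. DESeq2 added Lsp1 in both (-0.26 and -0.22, adjusted p = 0.0803 and 0.0822). It also added Prkcd, which was higher in EV+ (0.27, adjusted p = 0.0436). In EV+ against GN and EV+ against EV- the count was 0 by limma, edgeR and DESeq2, with 6 and 1 genes at an unadjusted p under 0.05. Over all genes that share was 7.13% and 4.57%. These targets answer to many other receptors as well.

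Of 8 proteins reported as ligands or regulators of the receptors, 5 were in the table. By limma 2 of these passed as higher in each comparison with control. Calls in either direction made up 1.75% of all genes in GN, 3.63% in EV+ and 2.84% in EV- against control. The list is short and was chosen with earlier results of these data known, and the 3 comparisons share the control libraries. Vim, which encodes vimentin, a filament protein that Dectin-1 can bind, was 653 and 575 CPM in control, 906 and 891 CPM in GN, 845 to 937 CPM in EV+ and 792 to 935 CPM in EV-. All nephritic libraries were above control, with log2 fold changes of 0.55 in GN (adjusted p = 0.0116), 0.55 in EV+ (adjusted p = 0.00292) and 0.52 in EV- (adjusted p = 0.00662). The GN call of Vim was lost without the trend (0.132) and without control replicate 2 (0.116), GN replicate 1 (0.124) or GN replicate 2 (0.107), and its EV- call without control replicate 2 (0.128). Gsn, which encodes gelsolin, whose secreted form severs the actin that Clec9a binds, was 51.0 and 50.7 CPM in control and 62.7 to 77.8 CPM in the 8 nephritic libraries. Its log2 fold change was 0.50 in GN (adjusted p = 0.0480), 0.51 in EV+ (adjusted p = 0.0168) and 0.41 in EV- (adjusted p = 0.0683, or 0.119 when blocked by replicate number). The GN call of Gsn was lost without the trend (0.149) and without either control (0.187 and 0.198) or either GN library (0.165 and 0.416), and its EV+ call without either control library (0.104 and 0.144). Its EV- call was lost without the trend (0.149), without either control library (0.244 and 0.321) and without EV- replicate 1 (0.180) or 3 (0.160). Anxa1, Anxa5 and Lgals9 did not pass. Pdpn, Sap130 and Anxa13 were not listed.

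Of 54 other genes of the C-type lectin superfamily, 23 were in the table and 11 of these stayed under 3 CPM in every library. By limma 0 passed in GN and 0 in EV+ against control, where calls made up 1.75% and 3.63% of all genes. At an unadjusted p under 0.05 there were 5 and 3. The quasi-likelihood test called 0 and 0 there, the likelihood-ratio test 1 and 2, and DESeq2 0 and 1. Over all genes in GN against control the likelihood-ratio test called 3.24% and DESeq2 3.27%. In EV- against control 6 had an unadjusted p under 0.05. The quasi-likelihood test called 1 there, the likelihood-ratio test 4 and DESeq2 3. For comparisons with control, no share of all genes is given for an unadjusted p under 0.05. None is given for the count tests in EV+ and EV- either, so these counts are not read as a result about the list. In EV- against control the likelihood-ratio test and DESeq2 added Clec4f (at most 1.21 CPM) and Klrd1, and the likelihood-ratio test also added Klrk1. By limma 1 passed there, where calls made up 2.84% of all genes. It was Cd72, an inhibitory co-receptor of B cells and myeloid cells, which fell by 1.15 on the log2 scale (SE 0.158, adjusted p = 0.00123). Cd72 was 31.7 and 37.2 CPM in control, 25.2 and 23.1 CPM in GN, 19.7, 27.6 and 26.5 CPM in EV+, and 14.3, 16.5 and 14.0 CPM in EV-. All EV- libraries were below all others. Its difference between EV+ and EV- was 0.68 (adjusted p = 0.247) by limma, and it passed in edgeR's likelihood-ratio test (adjusted p = 0.00242) and DESeq2 (adjusted p = 0.00492). The sum of B cell markers was 73.3 to 78.8 CPM in EV+ and 64.7 to 75.4 CPM in EV-, and its part in the Cd72 values was not tested. Among these 23 genes the count of calls in GN and EV+ against control rose to 1 each when blocked by replicate number, through Klrk1 (-0.90 and -0.65, adjusted p = 0.00144 and 0.00732). In EV- against control it rose to 3, with Klrk1 (-0.67, adjusted p = 0.00659) and Klrd1 (1.71, adjusted p = 0.0945). Without the block the limma adjusted p of Klrk1 was 0.112, 0.181 and 0.184 in GN, EV+ and EV-. That of Klrd1 in EV- was 0.302. The block joins same-numbered libraries of different groups, and the labels do not say what these share. Klrk1 and Klrd1 encode receptors of NK and T cells. Klrd1, itself on the marker list of these cells, was highest in EV- replicate 1 (15.7 CPM), as was the sum of that list. Klrk1 was highest in the control libraries (192 and 157 CPM) and was 136 CPM in EV- replicate 1. In EV+ against GN, EV- against GN and EV+ against EV- limma called 0, with 3, 4 and 3 genes at an unadjusted p under 0.05. Over all genes that share was 7.13%, 7.85% and 4.57%. The quasi-likelihood test called 0 in each, the likelihood-ratio test called 0, 3 and 3 and DESeq2 called 0, 2 and 3.

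**Figure D4:**
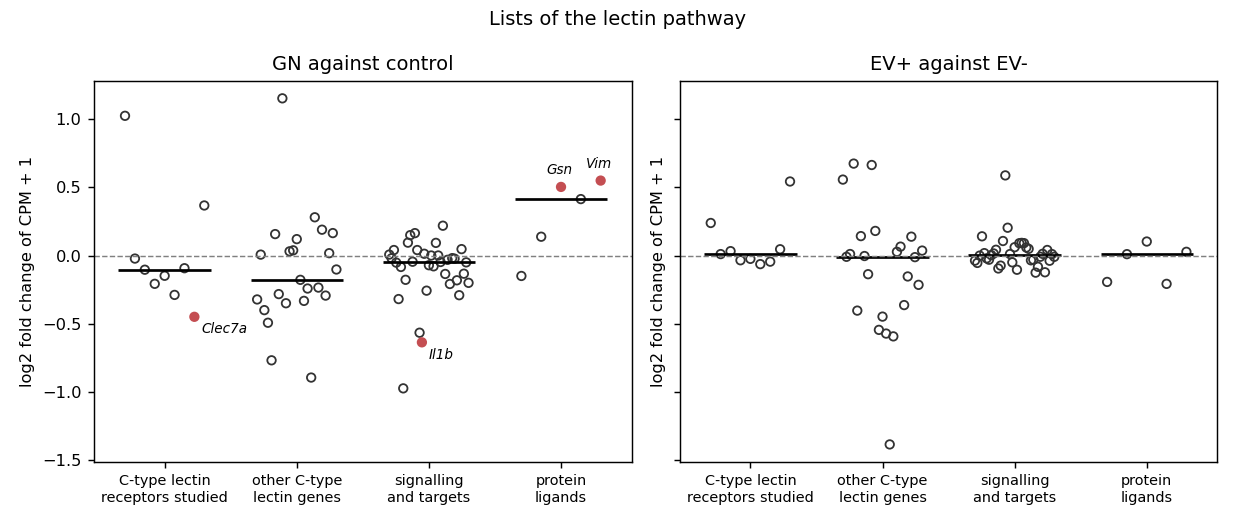
Log2 fold change of CPM + 1 from limma (y axis) for the 9 receptors, 23 other C-type lectin genes, 35 signalling and target genes and 5 protein ligands, in GN against control (left) and EV+ against EV- (right), with a circle per gene and a line at each list's median. Red filled circles passed an adjusted p of 0.1, which in GN against control were Clec7a, Il1b, Gsn and Vim, and none passed in EV+ against EV-.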

How the data were processed

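RNA of sorted splenic M2 macrophages was sequenced in 10 libraries (control and GN, n = 2 each; EV+ and EV-, n = 3 each), which the methods call biological replicates. The authors prepared libraries with the SMART-Seq v4 and Nextera XT kits, which do not mark strand, aligned paired-end reads to rn6 with STAR (version 2.5.3), counted them on RefSeq genes with HTSeq (version 0.6.0), removed genes with a maximum CPM under 1 and applied TMM normalization in edgeR. The deposited table holds the resulting normalized signal (CPM) of 9003 genes, each of which reached at least 1.01 CPM in some library. Divided by what a single read was worth in its library, 100% of the deposited signal values gave whole counts within 0.01 reads, and TMM CPM recomputed from them differed by at most 4e-05. Symbols of 18 genes had been turned into dates and could not be named. Libraries held 19270515 to 26617093 reads.

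Groups were compared with limma (version 3.58.1; R version 4.3.3) on log2(CPM + 1) with an intensity trend, in a single fit of the 10 libraries that left 6 residual degrees of freedom, with Benjamini-Hochberg adjustment over all genes and calls at an FDR under 0.1. A pseudocount of 1 understates changes of low genes. Alternatives were edgeR (version 4.0.16; quasi-likelihood and likelihood-ratio) and DESeq2 (version 1.42.0) on the recovered counts, RLE scaling, a pseudocount of 0.1, an FDR under 0.05, a filter of 1 CPM or more in 2 or more libraries, no trend, the replicate number as a block, and each library left out. Procedures were tested on simulated data. The receptors, the other gene lists and the tests were chosen with earlier results of these data known. Named genes were all receptors, up to 4 genes per other list and comparison with the largest change past the threshold, the 3 nearest patterns of 2 receptors, and the most abundant gene of a marker list; other genes were named after their values were seen.

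The labels do not say what a replicate number shares. Same-numbered EV+ and EV- libraries deviated together from their group means (r = 0.203, 0.295 and 0.122 across genes for replicates 1, 2 and 3). They were taken as pairs only in the alternative blocked by replicate number. The main fit has no block, so its EV+ against EV- intervals and adjusted p are unpaired. The block also joined same-numbered control and GN libraries. For these r was 0.0878 with the same number and -0.0878 with different numbers. With 2 libraries per group these values mirror each other, so they cannot show pairing. Gene order, names and promoters came from RefSeq (GRCr8), which is not the build of the table.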

Additional observations from a re-analysis of the deposited data

How the results depend on the processing

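Of 426 log2 fold changes recomputed for the receptors under the alternatives that keep all libraries, 417 kept their direction and their side of the threshold. Without the intensity trend 0 receptors passed over the 4 groups and in GN, EV+ and EV- against control, since Clec7a then missed the threshold. The edgeR likelihood-ratio test and DESeq2 called 2 receptors in GN against control, Clec7a and Clec10a. With a library left out, the number called was 0 to 1 over the 4 groups and in GN against control, and 0 to 2 in EV+ and in EV- against control. The replicate block changed no call of a receptor, but turned the sign of Clec4a1 in EV+ against GN (-0.012), Clec4a2 in EV- against GN (-0.030) and Clec4d in EV- against GN (0.059). A pseudocount of 0.1 turned Clec9a in EV+ against control to -0.13. Leaving out a library turned the sign of 17 of the 54 changes, none of which passed the threshold, and their log2 fold changes then ranged as follows. In EV+ against control these were -0.25 to 0.40 for Clec9a, -0.19 to 0.013 for Clec4a1. In GN against control these were -0.079 to 0.036 for Clec12a. In EV+ against GN these were -0.054 to 0.089 for Clec4a1, -0.11 to 0.067 for Clec4a2, -0.0092 to 0.13 for Clec7a, -0.51 to 0.035 for Clec9a. In EV- against GN these were -0.086 to 0.056 for Clec4a1, -0.078 to 0.10 for Clec4a2, -0.24 to 0.20 for Clec4d, -0.056 to 0.082 for Clec7a. In EV+ against EV- these were -0.049 to 0.066 for Clec12a, -0.016 to 0.081 for Clec7a, -0.078 to 0.057 for Clec4a3, -0.13 to 0.021 for Clec4e, -0.0035 to 0.073 for Clec4a1, -0.30 to 0.14 for Clec4d. With 2 control libraries, each comparison with control rests on 2 values, and the cause of these shifts was not tested. Clec9a and Clec10a, at 0 to 41 reads per library, cannot show moderate differences at this depth.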
